A study of Mus musculus with 12 samples.

Results

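The MHC class II genes described here are 8 genes taken by name from a table of 31208 genes: H2-Aa, H2-Ab1, H2-Eb1, Cd74, H2-DMa, H2-DMb1, Ciita and Rfx5. They were chosen for their part in antigen presentation and its control and not by any measured value. Their RNA was counted in brain tissue from 12 C57BL/6 mice, aged 8 weeks and male, in 3 groups of 4. Sham mice had no ischemia. Vehicle mice were at 6 h of cerebral ischemia, made by occluding the middle cerebral artery, after preconditioning with vehicle. Lactate mice were at the same time point after preconditioning with lactate. Both agents were injected into the cerebral ventricle on the day before the occlusion, and the sequenced lactate group received D-lactate, which the labels call lactate. The labels give no injection for the sham mice, so injection and ischemia cannot be told apart when either ischemic group is set against sham. Libraries were full-length cDNA amplified by PCR and read on a nanopore PromethION.

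Class II molecules carry peptides from taken-up protein to the surface of antigen-presenting cells, where CD4 T cells read them. H2-Aa and H2-Ab1 encode the alpha and beta chains of I-A, and H2-Eb1 encodes the beta chain of I-E, whose alpha chain is not made in C57BL/6 mice. The invariant chain, encoded by Cd74, holds the peptide groove of a new dimer until proteases trim it in the endosome, and the H2-DM dimer, encoded by H2-DMa and H2-DMb1, then exchanges the remaining fragment for peptide. Rfx5 belongs to the RFX complex that binds the X box of class II promoters beside NF-Y on the Y box, and Ciita is the co-activator that docks on this assembly. In the resting brain class II is low, and macrophages of the brain's borders, dendritic cells and reactive microglia are the cells best known for it.

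Each library held between 6815920 and 10677224 counted reads. Levels are given as CPM, counts scaled to the total of that mouse's library (counts per 1000000), so that 3 counts, used here as the detection floor, correspond to 0.281 CPM in the deepest library and 0.440 CPM in the shallowest. A change was called at a Benjamini-Hochberg adjusted p under 0.05 over all genes in edgeR's quasi-likelihood test, which took genes with at least 1 CPM in at least 4 of the 8 mice compared. Of the 8 class II genes, 7 passed that filter in each comparison and Ciita did not. Vehicle mouse 1 stood apart from the other mice, at 56.5 on the second principal component of all genes against -16.2 to 6.54 for the rest. Vehicle mouse 2 carried choroid plexus RNA, with 1844 CPM summed over 7 markers of that tissue against 5.87 to 15.4 CPM in the other vehicle mice. The same sum was 2.17 to 6.07 CPM in sham and 10.7 to 20.1 CPM in lactate mice, and of these markers Ttr rose in lactate against sham. The log2 fold changes that involve vehicle mice are given for H2-Aa, H2-Ab1, H2-Eb1, Cd74 and Rfx5 also without vehicle mouse 1 or 2 where that moved them by more than 1.5 times. Nothing in the labels ties the mice to cages or litters. In tissue RNA, more cells of a type and more RNA per cell cannot be told apart.

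The class II promoters are shown first, because the letters through which Rfx5 and NF-Y act lie in them. The RefSeq promoter windows of GRCm38.p6 matched 5 of the 8 genes, and H2-Ab1, Cd74 and Ciita had no entry. The last 120 bases before the transcription start are printed for H2-Aa and H2-Eb1, 5′ to 3′ on the strand of the gene, with the X box letters (CTNGNAACT) and, after them, the Y box letters (TGATTGG) in capitals. The H2-Aa stretch lies on the minus strand at chr17:34287824-34287943 and the H2-Eb1 stretch on the plus strand at chr17:34305747-34305866.
H2-Aa: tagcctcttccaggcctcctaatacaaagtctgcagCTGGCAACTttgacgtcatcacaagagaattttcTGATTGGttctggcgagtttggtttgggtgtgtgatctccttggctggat
H2-Eb1: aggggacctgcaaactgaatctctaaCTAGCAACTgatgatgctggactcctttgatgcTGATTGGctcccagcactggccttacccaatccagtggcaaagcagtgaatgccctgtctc
The X box letters began at position -84 in H2-Aa and -94 in H2-Eb1, counted from the start site. Between the end of the X letters and the start of the Y letters lay 25 and 24 bases. The window of H2-DMb1 held both sets of letters too, but its RefSeq start lies downstream of the start that GENCODE gives the gene, so that stretch falls inside the GENCODE model and is not printed. The letters were written down after these windows had been seen and were searched on both strands. Among 32851 windows of 250 bases upstream of a start site, 3.47% held the X letters, 7.23% the Y letters and 0.265% both. The Y letters hold ATTGG, the reverse complement of the CCAAT core. The windows of H2-DMa held neither set of letters, but they too lie downstream of the start that GENCODE gives the gene. The stretch before that GENCODE start was not searched, so these windows do not show whether it holds the letters. The window of Rfx5 held the Y letters alone, on the reverse strand. A match is a description of the sequence, and no binding was measured.

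The first class II result is the count of genes that changed. In lactate mice against sham, 4 of the 7 tested class II genes were called, beside 12.3% of all genes tested. H2-Aa, H2-Ab1 and Cd74 rose and Rfx5 fell. In vehicle mice against sham, 0 of the 7 were called, beside 1.47% of all genes, and 1 of the 7, Cd74, had an unadjusted p under 0.05. DESeq2 and limma voom also called 0 of the 7 there. In lactate against vehicle mice 0 of the 7 were called by edgeR, beside 0.00574% of all genes, and 0 of the 7 had an unadjusted p under 0.05. DESeq2 and limma voom called 0 of the 7 as well, while calling 52 genes up and 9 down, and 1 up and 1 down, among all 17419. At the study's own limits, an unadjusted p under 0.05 with a fold change of at least 1.5, the counts were 1 of 7 for vehicle against sham (9.52% of all genes), 5 of 7 for lactate against sham (17.5%) and 0 of 7 for lactate against vehicle (6.23%). The groups did not overlap for 1 of 7 genes in vehicle against sham (9.03% of all genes), 4 of 7 in lactate against sham (19.1%) and 0 of 7 in lactate against vehicle (4.81%). The median log2 fold change of the 7 genes was 0.52, 0.71 and 0.17 in these comparisons, beside 0.00, -0.03 and -0.03 over all genes tested. The sham mice are shared by the comparisons with sham, and each ischemic group by a pair of comparisons, so these counts are not independent of one another.

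**Figure D1:**
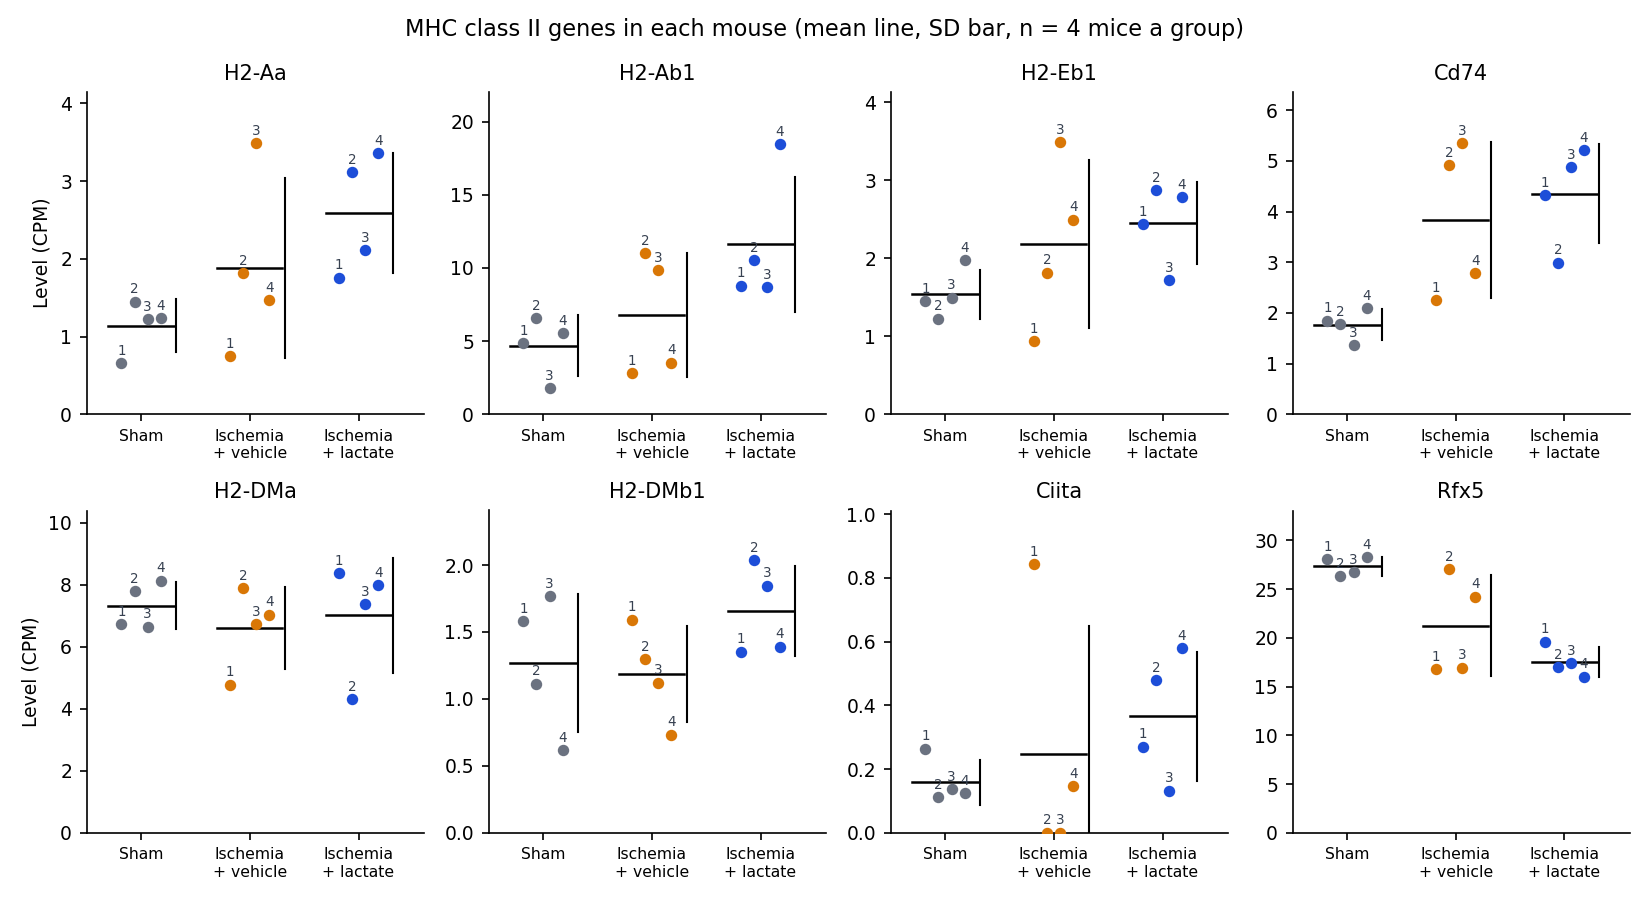
Level of each class II gene (y axis, CPM, starting at 0) in each of the 12 mice, with the mouse number above each point. Horizontal lines are group means and vertical bars the SD over 4 mice, stopped at 0. The lactate points of H2-Aa, H2-Ab1 and Cd74 all lie above the sham points, those of Rfx5 all lie below, and the vehicle points of H2-Aa, H2-Ab1 and Rfx5 overlap those of both other groups.

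The classical chains were low in every brain. H2-Aa (ENSMUSG00000036594, chr17:34282744-34287823 of GRCm38, minus strand), the I-A alpha chain, measured 0.659, 1.45, 1.22 and 1.23 CPM in sham mice 1 to 4. Vehicle mice 1 to 4 measured 0.749, 1.81, 3.49 and 1.47 CPM of H2-Aa. Lactate mice measured 1.76, 3.11, 2.11 and 3.36 CPM. Every lactate mouse was above every sham mouse, whereas the vehicle mice ran from within the sham range to the highest H2-Aa value of the series, in mouse 3. H2-Aa was 1.14 ± 0.338 CPM in sham, 1.88 ± 1.16 in vehicle and 2.59 ± 0.773 in lactate mice (SD, n = 4 each). These levels rest on 37, 60 and 84 reads per group, and the 95% Poisson intervals of the summed level, for counting error only, were 0.813 to 1.59 CPM, 1.38 to 2.32 CPM and 2.10 to 3.25 CPM. H2-Aa rose 2.29-fold in lactate against sham (log2 fold change 1.19, SE 0.34, edgeR adjusted p = 0.0380). That call was lost without sham mouse 1 (edgeR adjusted p = 0.0947), sham mouse 3 (0.0819), sham mouse 4 (0.0745), lactate mouse 2 (0.0895) or lactate mouse 4 (0.0912). It was also lost with the vehicle mice in the fit (edgeR adjusted p = 0.0982), with no filter on low counts (edgeR, 0.0518) and in DESeq2 (0.0510), so that 8 of 16 alternatives kept it.

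H2-Ab1 (ENSMUSG00000073421, chr17:34257689-34269419, plus strand), the I-A beta chain, measured 4.88, 6.58, 1.77 and 5.55 CPM in sham mice 1 to 4. Vehicle mice measured 2.81, 11.0, 9.83 and 3.52 CPM of H2-Ab1, and lactate mice 8.79, 10.5, 8.70 and 18.4 CPM. The lowest lactate mouse was above the highest sham mouse, and lactate mouse 4 held the highest H2-Ab1 level of all. In the vehicle group mice 2 and 3 lay within the lactate range and mice 1 and 4 within the sham range. Group levels of H2-Ab1 were 4.69 ± 2.07, 6.79 ± 4.23 and 11.6 ± 4.62 CPM in sham, vehicle and lactate mice (SD, n = 4 each). H2-Ab1 rose 2.50-fold in lactate against sham (log2 fold change 1.32, SE 0.34, edgeR adjusted p = 0.0239). The call was lost without sham mouse 1 (edgeR adjusted p = 0.0568) or lactate mouse 4 (0.0685) and when the vehicle mice shared the fit (0.0717). Lactate mouse 4 also bears on the size, since the log2 fold change was 1.02 without it.

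H2-Eb1 (ENSMUSG00000060586, chr17:34305867-34316674, plus strand), the I-E beta chain, measured 1.45, 1.23, 1.49 and 1.97 CPM in sham mice. Vehicle mice measured 0.937, 1.81, 3.49 and 2.49 CPM, and lactate mice 2.43, 2.87, 1.71 and 2.78 CPM. The H2-Eb1 ranges of sham and lactate mice overlapped, because lactate mouse 3 was below sham mouse 4. The levels were 1.54 ± 0.314, 2.18 ± 1.08 and 2.45 ± 0.527 CPM in sham, vehicle and lactate mice (SD, n = 4 each). The log2 fold change of H2-Eb1 in lactate against sham was 0.71 (SE 0.30, unadjusted p = 0.0337, edgeR adjusted p = 0.146), past the study's limits but not the adjusted one. The adjusted p of H2-Eb1 stayed between 0.108 and 0.272 under 16 alternative settings of the test (edgeR, DESeq2 and limma). H2-Eb1 overlaps a gene on the opposite strand, Gm20513, and the sources used here do not state whether counting used strand.

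In the vehicle mice the chains varied more than in the other groups. The coefficient of variation among vehicle mice was 61.7% for H2-Aa, 62.2% for H2-Ab1 and 49.4% for H2-Eb1, against 29.6%, 44.2% and 20.5% among sham mice. The log2 fold changes of vehicle against sham were 0.71 for H2-Aa (SE 0.46, edgeR adjusted p = 0.536), 0.54 for H2-Ab1 (SE 0.46, 0.662) and 0.52 for H2-Eb1 (SE 0.40, 0.623). Vehicle mouse 1, the library that stood apart, was the lowest vehicle mouse for H2-Aa, H2-Ab1, H2-Eb1 and Cd74. When 1 mouse at a time was omitted, the adjusted p of the chains in vehicle against sham stayed between 0.230 and 0.916 in edgeR, and without vehicle mouse 1 it was 0.230 for H2-Aa, 0.351 for H2-Ab1 and 0.252 for H2-Eb1. Without vehicle mouse 2 the log2 fold change of H2-Ab1 was 0.22 (edgeR adjusted p = 0.885), and without vehicle mouse 1 it was 0.82. Without vehicle mouse 3 the log2 fold changes were 0.23 for H2-Aa, 0.32 for H2-Ab1 and 0.19 for H2-Eb1. Without vehicle mouse 1 that of H2-Eb1 was 0.79. Without sham mouse 3 that of H2-Ab1 was 0.28.

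The order of the levels depends on whether length is taken into account. In plain CPM the mean sham levels ran from Rfx5 at 27.3 through H2-DMa at 7.33, H2-Ab1 at 4.69, Cd74 at 1.77, H2-Eb1 at 1.54, H2-DMb1 at 1.27 and H2-Aa at 1.14 to Ciita at 0.159, which is the order that applies if each read stands for 1 full-length transcript. Per kilobase of the longest coding transcript, the mean sham levels ran in the order Rfx5 at 6.15 CPM per kb, H2-Ab1 at 3.87, H2-DMa at 3.66, Cd74 at 1.26, H2-Aa at 1.01, H2-Eb1 at 0.920, H2-DMb1 at 0.904 and Ciita at 0.0264. H2-Ab1 and H2-DMa, and the neighbours from H2-Aa to H2-DMb1, differed by less than the spread between mice on the per-kilobase scale. H2-Ab1 per kilobase was above H2-Aa, H2-Eb1 and Cd74 in 12 of 12 mice, with median ratios of 4.01, 4.80 and 2.48. H2-Ab1 and H2-Eb1 transcripts were 68.6% identical over 1161 aligned bases.

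Cd74 (ENSMUSG00000024610, chromosome 18, positions 60803848 to 60812652 of GRCm38, plus strand), the invariant chain, was called in lactate against sham under every alternative run. It measured 1.85, 1.78, 1.36 and 2.10 CPM in sham mice 1 to 4. Vehicle mice measured 2.25, 4.92, 5.35 and 2.79 CPM of Cd74, and lactate mice 4.33, 2.99, 4.88 and 5.22 CPM. Every mouse of both ischemic groups was above every sham mouse, and the ischemic groups overlapped with each other. Cd74 was 1.77 ± 0.307 CPM in sham, 3.83 ± 1.54 in vehicle and 4.35 ± 0.978 in lactate mice (SD, n = 4 each), on 57, 124 and 139 reads per group. In lactate against sham Cd74 rose 2.49-fold (log2 fold change 1.31, SE 0.27, edgeR adjusted p = 0.00821). This call held in 16 of 16 alternatives, with adjusted p from 0.00258 to 0.0310 (edgeR, DESeq2 and limma). In vehicle against sham the log2 fold change of Cd74 was 1.13 (SE 0.34, unadjusted p = 0.00608, edgeR adjusted p = 0.164). Over the alternatives that adjusted p ran from 0.0516 to 0.373 and passed in 0 of 16. Without vehicle mouse 1 the log2 fold change of Cd74 in vehicle against sham was 1.33 (edgeR adjusted p = 0.0518), and without vehicle mouse 2 it was 0.99 (0.270).

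**Figure D2:**
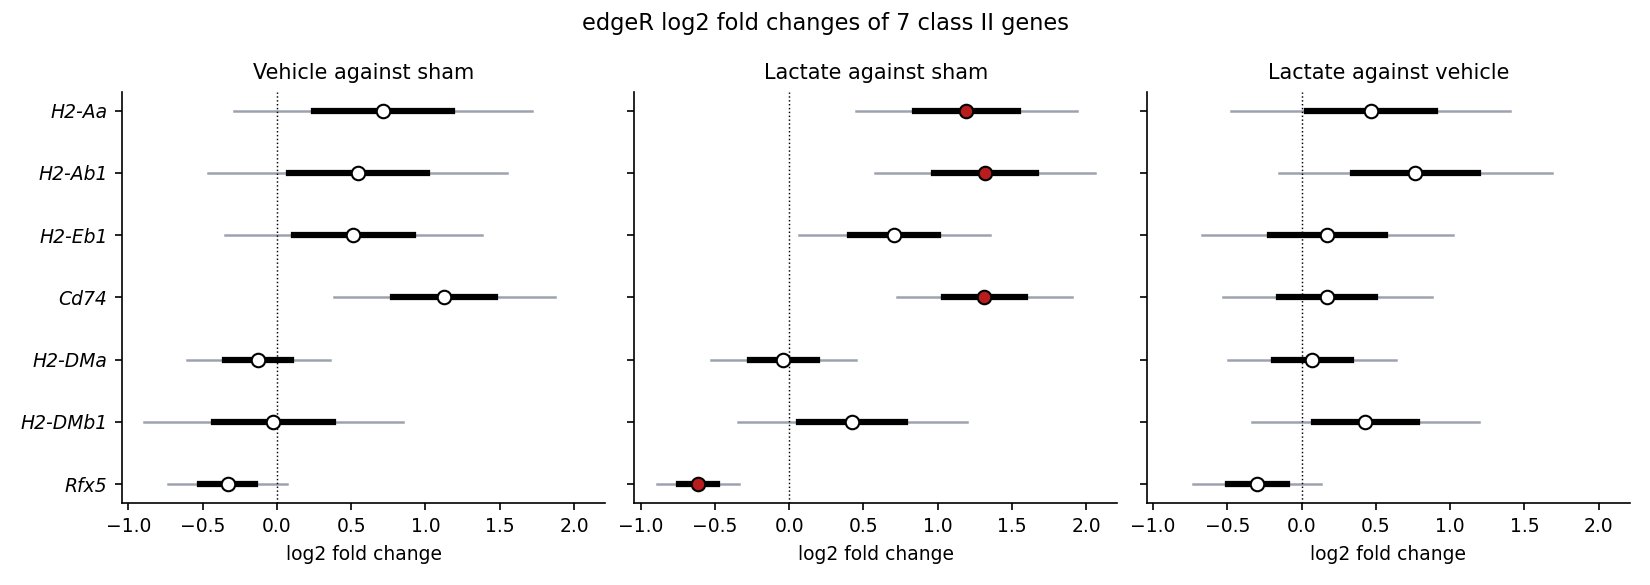
log2 fold change (x axis) of the 7 tested class II genes in the 3 comparisons, from edgeR. Thick bars are 1 SE, thin bars the 95% interval, and filled points have an adjusted p under 0.05. The 4 filled points all lie in lactate against sham: H2-Aa at 1.19, H2-Ab1 at 1.32, Cd74 at 1.31 and Rfx5 at -0.61.

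The DM chaperone genes did not pass the test in any comparison. H2-DMa (ENSMUSG00000037649, chr17:34119541-34139101, plus strand), the alpha chain of the peptide exchanger, measured 6.73, 7.80, 6.65 and 8.14 CPM in sham mice. Vehicle mice measured 4.78, 7.90, 6.72 and 7.04 CPM of H2-DMa, and lactate mice 8.38, 4.31, 7.38 and 8.00 CPM. The 3 groups overlapped almost fully, at 7.33 ± 0.753, 6.61 ± 1.32 and 7.02 ± 1.85 CPM in sham, vehicle and lactate mice (SD, n = 4 each). The log2 fold change of H2-DMa was -0.12 in vehicle against sham (95% interval -0.60 to 0.35, edgeR adjusted p = 0.857). It was -0.04 in lactate against sham (95% interval -0.53 to 0.45, edgeR adjusted p = 0.937), so a log2 fold change of 1 in either direction lies outside both intervals. The annotated span of H2-DMa overlaps Brd2 on the opposite strand, a chromatin reader gene at a mean of 105 to 115 CPM in the 3 groups.

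H2-DMb1 (ENSMUSG00000079547, chr17:34153072-34160230, plus strand), the beta chain, measured 1.58, 1.11, 1.77 and 0.617 CPM in sham mice. Vehicle mice measured 1.59, 1.30, 1.12 and 0.734 CPM of H2-DMb1, and lactate mice 1.35, 2.04, 1.85 and 1.39 CPM. The groups overlapped, at 1.27 ± 0.514, 1.19 ± 0.359 and 1.66 ± 0.338 CPM (SD, n = 4 each). The log2 fold change of H2-DMb1 was -0.02 in vehicle against sham (SE 0.40, edgeR adjusted p = 0.987) and 0.43 in lactate against sham (SE 0.36, edgeR adjusted p = 0.486), where it was 0.20 without sham mouse 4. H2-DMb1 and its neighbour H2-DMb2 had transcripts 94.1% identical over 1219 aligned bases, so reads may have been divided between them and the level of H2-DMb1 is uncertain. H2-DMb2 held at most 6 reads in any mouse.

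Of the regulators, the co-activator Ciita (ENSMUSG00000022504, chr16:10480059-10528418, plus strand) lay near the detection floor. Sham mice 1 to 4 held 2, 1, 1 and 1 reads of Ciita. Vehicle mice held 9, 0, 0 and 1 reads, and lactate mice 2, 4, 1 and 5 reads. At most 3 counts were seen in 9 of the 12 mice, and the 9 reads of vehicle mouse 1, the deepest library, were the highest value. The summed Ciita level was 0.156 CPM in sham (95% Poisson interval 0.0507 to 0.364), 0.301 CPM in vehicle (0.144 to 0.553) and 0.376 CPM in lactate mice (0.194 to 0.656). The intervals cover counting error only and not the spread between mice, and 9 of the 10 vehicle reads came from mouse 1. Tested without a filter, Ciita had edgeR adjusted p-values of 0.775, 0.372 and 0.937 in vehicle against sham, lactate against sham and lactate against vehicle. The gene overlaps Dexi on the opposite strand, which stood at a mean of 18.8 to 20.4 CPM in the 3 groups, far above Ciita.

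Rfx5 (ENSMUSG00000005774, chr3:94954075-94961561, plus strand), the DNA-binding partner in the RFX complex, fell where H2-Aa, H2-Ab1 and Cd74 rose. Sham mice measured 28.1, 26.3, 26.8 and 28.2 CPM of Rfx5. Vehicle mice measured 16.8, 27.1, 16.9 and 24.2 CPM, and lactate mice 19.6, 17.0, 17.4 and 16.0 CPM. Every lactate mouse was below every sham mouse, and the vehicle mice fell into a pair at the lactate level, mice 1 and 3, and a pair near the sham level, mice 2 and 4. Rfx5 was 27.3 ± 0.964 CPM in sham, 21.2 ± 5.21 in vehicle and 17.5 ± 1.52 in lactate mice (SD, n = 4 each), on 875, 689 and 557 reads per group. In lactate against sham Rfx5 fell to 0.654 of the sham level (log2 fold change -0.61, SE 0.13, edgeR adjusted p = 0.00854), and the call held in 16 of 16 alternatives with adjusted p from 0.000545 to 0.0380 (edgeR, DESeq2 and limma). In vehicle against sham the log2 fold change of Rfx5 was -0.33 (SE 0.19, edgeR adjusted p = 0.465), and it ran from -0.46 without vehicle mouse 2 to -0.23 without vehicle mouse 1 or mouse 3. Within the vehicle group Rfx5 followed no single order with the chains: mouse 2 was the highest for Rfx5 and H2-Ab1, whereas mouse 3, the highest for H2-Aa, H2-Eb1 and Cd74, had Rfx5 close to the lowest level. Rfx5 overlaps B230398E01Rik on the opposite strand.

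**Figure D3:**
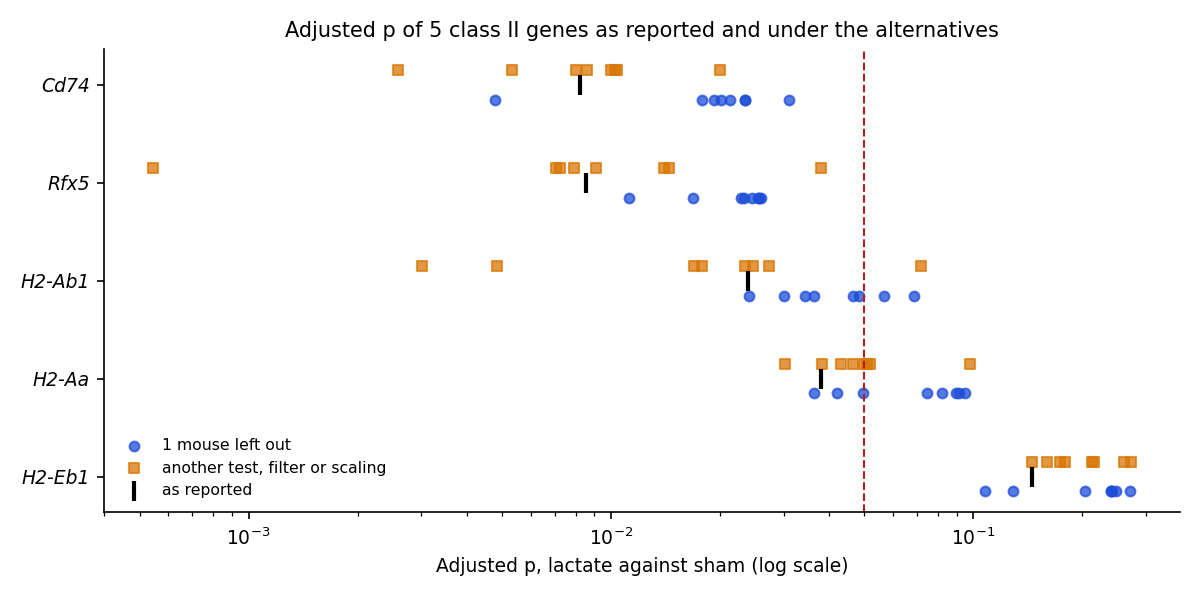
Adjusted p (x axis, log scale) in lactate against sham for 5 class II genes, as reported (black bars) and under 16 alternatives: 8 fits that leave out 1 mouse (circles) and 8 with another test, filter, scaling or design (squares). The dashed line is 0.05. All points of Cd74 and Rfx5 lie below it, 13 of 16 of H2-Ab1, 8 of 16 of H2-Aa and 0 of 16 of H2-Eb1.

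The comparison of lactate with vehicle mice asks whether lactate preconditioning shifted class II in the ischemic brain, and it is the comparison in which ischemia and surgery are shared. The log2 fold changes were 0.46 for H2-Aa (95% interval -0.47 to 1.40), 0.77 for H2-Ab1 (-0.15 to 1.68), 0.17 for H2-Eb1 (-0.67 to 1.02) and 0.17 for Cd74 (-0.53 to 0.88). The edgeR adjusted p-values of these 4 genes were 0.782, 0.624, 0.924 and 0.903. For H2-DMa, H2-DMb1 and Rfx5 the log2 fold changes were 0.07 (-0.49 to 0.64), 0.43 (-0.33 to 1.19) and -0.30 (-0.73 to 0.13), with edgeR adjusted p of 0.958, 0.746 and 0.690. The intervals of H2-Aa, H2-Ab1, H2-Eb1 and H2-DMb1 hold both 0 and 1, so neither an unchanged nor a raised level is set apart by these data. Without vehicle mouse 1 the log2 fold changes of H2-Eb1 and Cd74 were -0.09 and -0.02. Without vehicle mouse 1 the log2 fold change was 0.18 for H2-Aa, 0.50 for H2-Ab1, 0.63 for H2-DMb1 and -0.39 for Rfx5. Without vehicle mouse 2 it was 0.46 for H2-Aa, 0.10 for H2-Eb1, 0.32 for Cd74, 0.46 for H2-DMb1 and -0.16 for Rfx5, and that of H2-Ab1 was 1.10 (edgeR adjusted p = 0.715). Without vehicle mouse 3 it was 0.95 for H2-Aa, 0.50 for H2-Eb1 and 0.38 for Cd74. Without lactate mouse 4 it was 0.45 for H2-Ab1. That the calls against sham were made for lactate mice and not for vehicle mice does not show that the ischemic groups differ.

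Summed over H2-Aa, H2-Ab1, H2-Eb1 and Cd74, class II RNA was 8.84, 11.0, 5.84 and 10.9 CPM in sham mice 1 to 4. In vehicle mice the sum was 6.74, 19.6, 22.2 and 10.3 CPM, and in lactate mice 17.3, 19.5, 17.4 and 29.8 CPM. Every lactate mouse exceeded every sham mouse, and the vehicle group was divided, with mice 2 and 3 at the lactate level and mice 1 and 4 at the sham level. The group sums were 9.14 ± 2.42, 14.7 ± 7.35 and 21.0 ± 5.95 CPM (SD, n = 4 each).

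The marker lists of the cell types that could carry class II RNA moved as follows. Over 7 border macrophage markers the summed level was 7.65 to 11.1 CPM in sham, 10.2 to 15.2 in vehicle and 12.4 to 17.8 in lactate mice. Of the 5 border macrophage markers tested, 0 were called in either comparison with sham by edgeR, DESeq2 or limma voom, and 1 had an unadjusted p under 0.05 in each, Pf4 in vehicle and F13a1 in lactate mice. The 7 microglia markers summed to 217 to 230 CPM in sham, 128 to 207 in vehicle and 194 to 218 in lactate mice, and P2ry12, a purinergic receptor of resting microglia, fell in both ischemic groups. Over 7 dendritic cell markers the sums were 3.33 to 4.89, 2.53 to 3.96 and 2.03 to 4.35 CPM, and 4 of them, Itgax, Xcr1, Clec9a and Cd209a, held at most 3 counts in every mouse. B cell markers summed to 0.124 to 1.05 CPM over all mice, with Ms4a1 at 0 and Pax5 at no more than 3 counts. For monocytes the sum of 4 markers was 1.45 to 2.59, 1.76 to 5.83 and 1.22 to 7.65 CPM. Neutrophils are not among the classical class II cells, and their markers summed to 0.557 to 2.77, 8.80 to 71.8 and 16.5 to 39.8 CPM, and vehicle mice 2 and 3, the higher ones for summed class II RNA, were also the higher ones here, at 51.8 and 71.8 CPM. Lactate mouse 4 was the highest lactate mouse for monocytes (7.65 CPM) as for class II. Lactate mouse 2 (5.03 CPM) was below mouse 3 (6.99 CPM) for monocytes but above it for class II (19.5 against 17.4 CPM). Vehicle mouse 3, that group's highest for class II, had 3.24 CPM for monocytes, against 3.56 CPM in vehicle mouse 1, its lowest. Every lactate mouse was above every sham mouse for border macrophages. The lactate mice did not show the neutrophil order, since mouse 4 had the highest class II sum (29.8 CPM) and the lowest neutrophil sum (16.5 CPM), and mouse 3 had the highest neutrophil sum (39.8 CPM) at a class II sum of 17.4 CPM. S100a8 and S100a9 were called up in both ischemic groups against sham, and Retnlg in lactate mice. Retnlg reached at most 0.527 CPM and S100a9 at most 1.19 CPM in a sham mouse. These genes passed the filter through the ischemic mice, so their calls are partly set by it. Hemoglobin and Alas2, marking red blood cells, summed to 560 to 633 CPM in sham, 333 to 500 in vehicle and 375 to 499 in lactate mice, and 4 of the 5, the hemoglobin genes, fell in lactate against sham. Of the other lists, Mog of oligodendrocytes and Slco1a4 of endothelium fell and Ly6c1 of endothelium rose in lactate against sham. The part of border macrophages, monocytes, neutrophils, blood and choroid plexus in the class II values was not tested. Neuron, astrocyte and oligodendrocyte markers were all present, as the label brain requires.

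**Figure D4:**
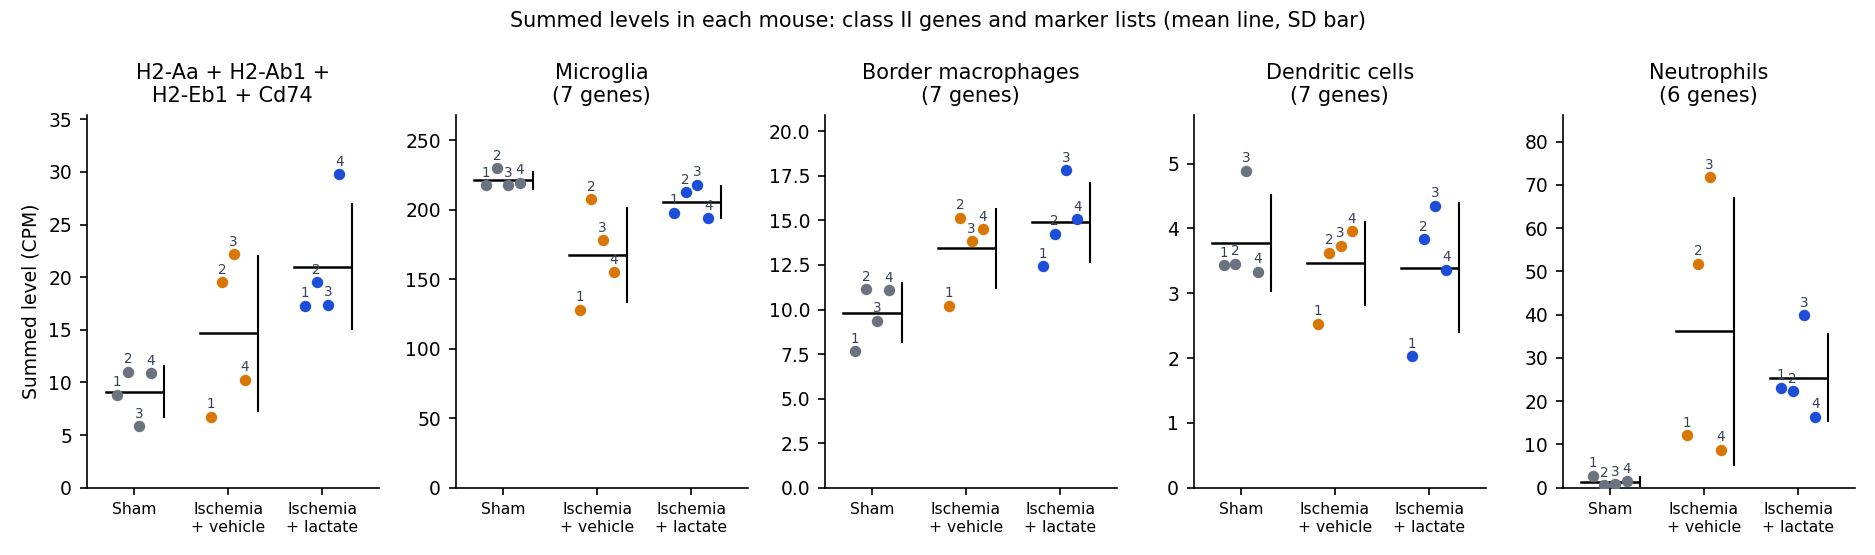
Summed level (y axis, CPM, starting at 0) in each mouse of the 4 class II genes H2-Aa, H2-Ab1, H2-Eb1 and Cd74 and of 4 marker lists, with mouse numbers, group means (lines) and SD (bars). In the vehicle group mice 2 and 3 are the highest for the class II sum (19.6 and 22.2 CPM) and for neutrophils (51.8 and 71.8 CPM), whereas in the lactate group mouse 4 is the highest for the class II sum (29.8 CPM) and the lowest for neutrophils (16.5 CPM). The dendritic cell markers stay under 5 CPM in all 12 mice.

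The genes whose levels followed the 4 surface-pathway genes most closely from mouse to mouse were named by a measure of likeness. It was the Pearson r over the 12 mice of log2(CPM + 1), with group means removed, against the mean of H2-Aa, H2-Ab1, H2-Eb1 and Cd74, over 13135 genes. The highest were Lyz2 at 0.93, Htr1f at 0.91, Dnajb4 at 0.91, Bbip1 at 0.90 and Ddit3 at 0.89. Lyz2 encodes the lysozyme of myeloid cells, Htr1f a serotonin receptor, Dnajb4 a heat shock cochaperone, Bbip1 a cilium protein and Ddit3 a transcription factor of the unfolded protein response. Among the class II genes outside that mean, r was 0.45 for H2-DMa, -0.39 for H2-DMb1, -0.55 for Ciita and 0.04 for Rfx5. Vehicle mouse 1 held 9 of the 10 vehicle reads of Ciita and the lowest class II sum of its group (6.74 CPM). The r of Ciita therefore leans on that mouse. In the lactate group mouse 4 was the highest for both Ciita (5 reads) and the class II sum (29.8 CPM). Every gene was read from the same 12 libraries, so these values share each library's depth and quality and are a description only.

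The rest of the pathway was read from lists of 38 names, of which 34 were in the table and 27 were tested in lactate against sham. There 6 genes rose and 0 fell, beside 12.3% of all genes called in either direction. In vehicle against sham 1 of 26, Cd44, rose and 0 fell, beside 1.47% of all genes. Cd44 and Cd86, which are among the 6, were under 1 CPM in every sham mouse and passed the filter only through the ischemic mice, so these counts are partly set by the filter and are not read against the background. In lactate against vehicle 0 of 27 were called by edgeR, DESeq2 or limma voom, and 6 had an unadjusted p under 0.05. Of these 6, 3 were past the study's limits, all upward, beside 6.23% of all genes in either direction. The remaining class II chains and chaperones were at or near the floor: H2-Eb2 had 0 reads in all 12 mice, and H2-DMb2, H2-Oa and H2-Ob at most 6, 7 and 3.

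Of the 7 endosomal genes that process antigen and the invariant chain, 4 rose in lactate against sham, where 12.3% of all genes were called. Ctss, the cathepsin that trims the invariant chain, measured 116, 93.1, 120 and 118 CPM in sham mice, 89.7, 146, 148 and 127 CPM in vehicle mice and 152, 180, 184 and 179 CPM in lactate mice. Every lactate mouse was above every mouse of the other groups. Ctss rose by a log2 fold change of 0.67 in lactate against sham (SE 0.10, edgeR adjusted p = 0.00160). In lactate against vehicle it stood at 0.43 (SE 0.16, edgeR adjusted p = 0.517). Lgmn, an asparagine endopeptidase of the endosome, had the same order of ranges, with lactate mice at 82.7 to 90.5 CPM, sham mice at 53.1 to 65.2 and vehicle mice at 44.6 to 74.9. Its log2 fold change was 0.54 against sham (SE 0.10, edgeR adjusted p = 0.00495) and 0.37 against vehicle (SE 0.16, edgeR adjusted p = 0.550). Ctsd, an aspartic protease, rose by 0.57 in lactate against sham (SE 0.09, edgeR adjusted p = 0.00160), from 213 to 233 CPM in sham to 290 to 350 CPM in lactate mice. Without vehicle mouse 1 Ctsd was also called in vehicle against sham (log2 fold change 0.41, edgeR adjusted p = 0.0434), against 0.27 and 0.470 with it. Ifi30, the reductase that opens disulfide bonds of antigen, rose by 1.57 in lactate against sham (SE 0.38, edgeR adjusted p = 0.0174) from 5 to 11 reads per sham mouse to 13 to 31 per lactate mouse, and its call was lost without sham mouse 4 (0.0536). Ctsl, Ctsb and Ctsh were not called.

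The 6 further class II promoter factors, Rfxap, Rfxank, Nfya, Nfyb, Nfyc and Creb1, were all tested in the 3 comparisons. None was called by edgeR, DESeq2 or limma voom, and 0 had an unadjusted p under 0.05. With Rfx5 added, 1 of 7 tested promoter factors was called in lactate against sham, a share near the 12.3% of all genes. Of the 7 genes of interferon gamma signaling, the pathway best known for inducing Ciita, 6 were tested, and in lactate against sham 0 were called by edgeR, DESeq2 or limma voom and 1, Irf1, had an unadjusted p under 0.05. Ifng itself had 1 read in 1 sham mouse and 0 in the other 11 mice. Irf1 was past the study's limits, downward, in lactate against sham (log2 fold change -0.64, SE 0.27, edgeR adjusted p = 0.152).

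Of the genes of surface control and T cell contact, Cd44 and Cd86 were called. Both were under 1 CPM in every sham mouse and passed the filter only through the ischemic mice. Their calls are thus partly set by the filter, and the values below are a description. Cd44, an adhesion receptor that associates with Cd74, had 1, 4, 0 and 4 reads in sham mice, 23, 8, 14 and 23 in vehicle mice and 21, 15, 48 and 38 in lactate mice. It rose in vehicle against sham (log2 fold change 2.85, SE 0.60, edgeR adjusted p = 0.0335) and in lactate against sham (3.73, SE 0.58, edgeR adjusted p = 0.00157). The vehicle call was lost when any 1 sham mouse was left out, with edgeR adjusted p of 0.123, 0.0741, 0.0878 and 0.0657 without sham mice 1 to 4. Cd86, the co-stimulatory ligand shown beside class II, had 7, 8, 4 and 0 reads in sham mice, 4, 20, 22 and 12 in vehicle mice and 19, 24, 23 and 12 in lactate mice. In lactate against sham Cd86 rose by a log2 fold change of 2.05 (SE 0.52, edgeR adjusted p = 0.0216), a call lost without sham mouse 3 (0.0606) and with all 12 mice in one fit (0.0509). Cd86 did not pass the filter in vehicle against sham. Against sham, neither gene passed the filter with a lactate mouse left out, nor Cd44 with a vehicle mouse left out. Those fits therefore hold no test of these genes.

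**Figure D5:**
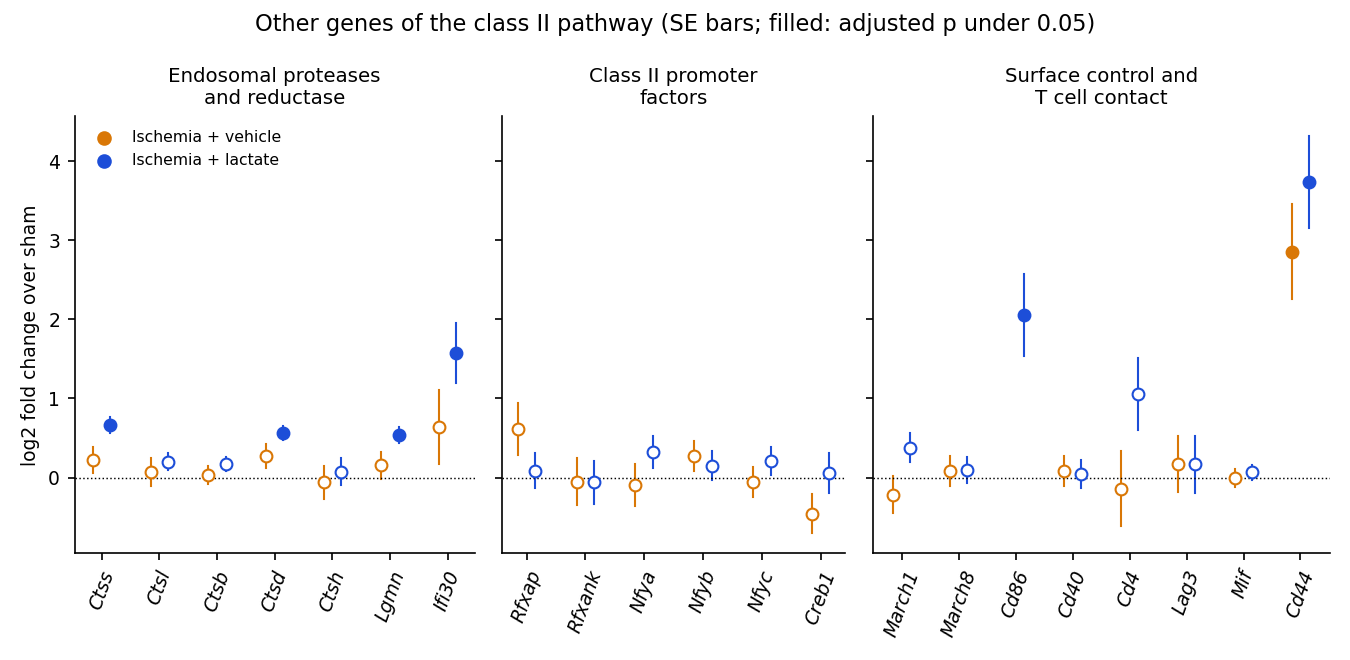
log2 fold change over sham (y axis, SE bars) of the tested genes of 3 pathway lists in vehicle (orange) and lactate mice (blue), from edgeR. Filled points have an adjusted p under 0.05. The filled lactate points are Ctss, Ctsd, Lgmn, Ifi30, Cd86 and Cd44, and the filled vehicle point is Cd44 at 2.85. All points of the promoter factors are open.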

How the data were processed

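Total RNA from 12 brains was made into cDNA-PCR nanopore libraries. The deposited table holds, for each gene, whole-number read counts and CPM that the authors computed (CPM equals the count scaled to the library's total, to within 4.75e-06 CPM). The submitters' processing notes name GRCm38 and DESeq 1.10.1. The counting tool, its annotation and its strand setting are not given in the sources used here. Columns holding the authors' own fold changes and p-values were not used. Left out were 4 lines that hold no gene, and 27 symbols held as dates were restored by Ensembl identifier. Replicates are separate mice by their labels, and the lowest chi-square per gene between replicates was 5.04, so none looked like a library deposited again.

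edgeR 4.0.16 (quasi-likelihood, TMM, Benjamini-Hochberg over all genes tested) was fitted to the counts of the 2 groups compared, without covariates, on genes with CPM of at least 1 in at least 4 mice. It was tested on simulated data. Alternatives were DESeq2 1.42.0, limma 3.58.1 (voom with sample quality weights), DESeq2 size factors, other filters, identified genes only, all 12 mice in one fit, the mouse number as a block and leaving out each mouse. Levels were recomputed with TMM totals. All 8 genes are named. Of the pathway lists, genes with an adjusted p under 0.05 in any comparison are named, and the others mentioned were picked after their values were seen. Some genes of these lists are not reported here. The members, lists and tests were chosen with earlier results of these data known. Positions and transcript lengths come from GENCODE M21 on GRCm38, and promoter windows from RefSeq. Ifi30 was matched by the Ensembl identifier in its row's name. Likeness used log2(CPM + 1), a pseudocount of 1.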

Additional observations from a re-analysis of the deposited data

Results flagged for a closer look

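Within groups of 4 mice, a mouse was marked when its gap to the nearest other mouse, as a share of the group's range, exceeded Dixon's 95% value. Of 42 groups searched, over the 8 class II genes and the 6 named pathway genes, 5 held such a mouse, and chance marks about 1 in 20 groups. Ciita in sham mouse 1 was the highest of its group at 0.264 CPM, on 2 reads against 1 in each other sham mouse. Ctss in sham mouse 2 was the lowest of its group at 93.1 CPM. Ifi30 in vehicle mouse 3 was the highest of its group at 2.74 CPM. Ctsd and Lgmn in vehicle mouse 1 were the lowest of their group, at 180 CPM and 44.6 CPM, and that mouse was also the lowest vehicle mouse for H2-Aa, H2-Ab1, H2-Eb1, Cd74 and H2-DMa.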

How the results depend on the processing

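Of 593 refits of single-gene log2 fold changes, 557 kept their direction and side of the threshold, 19 lost a call, 1 gained one and 16 turned sign, 0 of those for a called gene. In lactate against sham the number of class II genes called was 4 with the mouse number as a replicate block, 2 with all 12 mice in one fit, and 2 to 4 with 1 mouse left out (2 without sham mouse 1 or lactate mouse 4). Vehicle against sham had 0 called, and 1 at the study's limits. Same-numbered mice are different animals and correlated at only -0.17 to 0.18, so the numbers do not pair them, and the block changed no class II call. The block did lose Cd44 in vehicle against sham (edgeR adjusted p = 0.0548). Sign turns were small: in vehicle against sham H2-DMb1 was 0.0040 with identified genes only and -0.24 to 0.17 with 1 mouse left out, and H2-DMa -0.22 to 0.011 (the latter without vehicle mouse 1). In lactate against sham H2-DMa was 0.0041 with limma voom, 0.0020 with identified genes only and -0.13 to 0.15 with 1 mouse left out. In lactate against vehicle H2-Eb1 was -0.012 with limma voom, and with 1 mouse left out the ranges were -0.091 to 0.50 for H2-Eb1, -0.018 to 0.38 for Cd74 and -0.054 to 0.25 for H2-DMa, the lowest values being those without vehicle mouse 1. The cause of these changes was not tested. TMM totals moved mean levels by at most 2.28%. Depth limits Ciita, which had at most 9 reads in any mouse, and the chains, with 37 to 84 reads per group for H2-Aa.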
